A study of Homo sapiens with 2 samples.

Results

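Genes of DNA replication and of the G1/S transition were examined in libraries of capped RNA 5′ ends (cap analysis of gene expression, CAGE) from the human hepatoma line PLC/PRF/5. They are 46 genes picked by symbol for origin licensing, the replication fork, nucleotide synthesis, E2F-linked regulation, chromatin assembly, and histone transcription and processing, and all 46 were found among 16424 listed genes. Cells were non-treated (0 µg/ml) or received 3 µg/ml M2BPGi, the glycosylation isomer of Mac-2 binding protein. M2BPGi binds the lectin WFA and is used as a serum marker of liver fibrosis. Cells of both groups were grown to like confluency, given fresh medium with or without M2BPGi and collected 6 h later. There was 1 library for each group, so none of the differences could be set against replicates.

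In CAGE a transcript gives 1 tag whatever its length, so that levels can be compared between genes as well as between libraries. Levels are tags scaled to library size (CPM), and pairs of CPM values are given with the non-treated library first and the M2BPGi-treated library second. The totals, read back from the steps between CPM values, were 24040209 and 24862941 tags. Log2 ratios, M2BPGi-treated over non-treated, had 1 CPM added to both values, which makes ratios of low genes smaller. Intervals are 95% Clopper-Pearson intervals of the tag ratio with nothing added, cover counting error only and are not adjusted for the number of genes. A gene is called higher or lower beyond counting error where this interval lies wholly on that side of 0, which compares the libraries and not the conditions.

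The libraries held the markers of a hepatoma line. AFP, the fetal serum protein made by many hepatomas, was at 695 and 566 CPM, while ALB, encoding albumin, was at 8.82 and 7.04 CPM. All 8 hepatocyte and hepatoma genes examined were listed, with a summed level of 2355 and 1673 CPM. FGB, encoding a fibrinogen chain, was the most abundant, at 950.0 and 623 CPM. SERPINA1, the plasma protease inhibitor gene, was at 671 and 455 CPM, and APOB, encoding the apolipoprotein of very-low-density lipoprotein, at 15.6 and 11.1 CPM. In all, 7 of the 8 were lower in the M2BPGi-treated library beyond counting error, against 31.5% of all genes. Of 10 markers of leukocytes, macrophages, endothelium and stroma, 4 were listed and summed to 26.4 and 24.7 CPM, the most abundant being CD68 at 21.2 and 20.5 CPM. PTPRC, the pan-leukocyte marker, was at 0 in both libraries, which allows up to 0.125 and 0.121 CPM. The other 6 were not analysed here. The part of the lower hepatocyte genes in the values of the replication genes was not tested.

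Before S phase, the origin recognition complex, CDC6 and CDT1 load the MCM2 to MCM7 helicase onto origins, and geminin blocks further loading once replication has begun. CDC45 and the GINS complex then join the helicase, and polymerases held by the sliding clamp PCNA copy the strands. Many of these genes are targets of E2F factors, which cyclin D and cyclin E kinases free from the retinoblastoma protein.

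Most replication and G1/S genes were at nearly the same level in both libraries. The 46 genes summed to 2193 and 2168 CPM, a log2 ratio of the sums of -0.02 (interval -0.03 to 0.00). Their median log2 ratio was -0.06, with quartiles of -0.19 and 0.06, and the 13724 genes whose mean CPM was 1 or more had a median of -0.05, with quartiles of -0.26 and 0.14. All 46 passed this filter, and all but CCNE2 had a mean CPM of at least 10. Whether a lower level reflects fewer cells in S phase or less RNA per cell cannot be told apart in bulk cells.

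None of the 46 genes was 1.5-fold higher or lower. Of all genes analysed, 1.6% were at least 1.5-fold higher and 4.04% lower, together 5.64%, and at a mean CPM of 10 or more these shares were 1.43%, 2.36% and 3.78%. Beyond counting error, 7 of the 46 were higher (15.2%) and 16 lower (34.8%), and the intervals of the remaining 23 included 0. Over all genes, 22.8% were higher and 31.5% lower, together 54.2%, and at a mean CPM of 10 or more 28.9% and 34.8%, together 63.6%. The share of lower genes among the 46 is near this background and is not a result about them. By sign alone, 15 of the 46 were above 0 (32.6%) and 31 below (67.4%). Of all genes analysed, 42.9% were above and 57% below, and at a mean CPM of 10 or more 45.9% and 54%. With the libraries rescaled so that the median gene has a log2 ratio of 0, 23 of the 46 were above and 23 below.

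**Figure D1:**
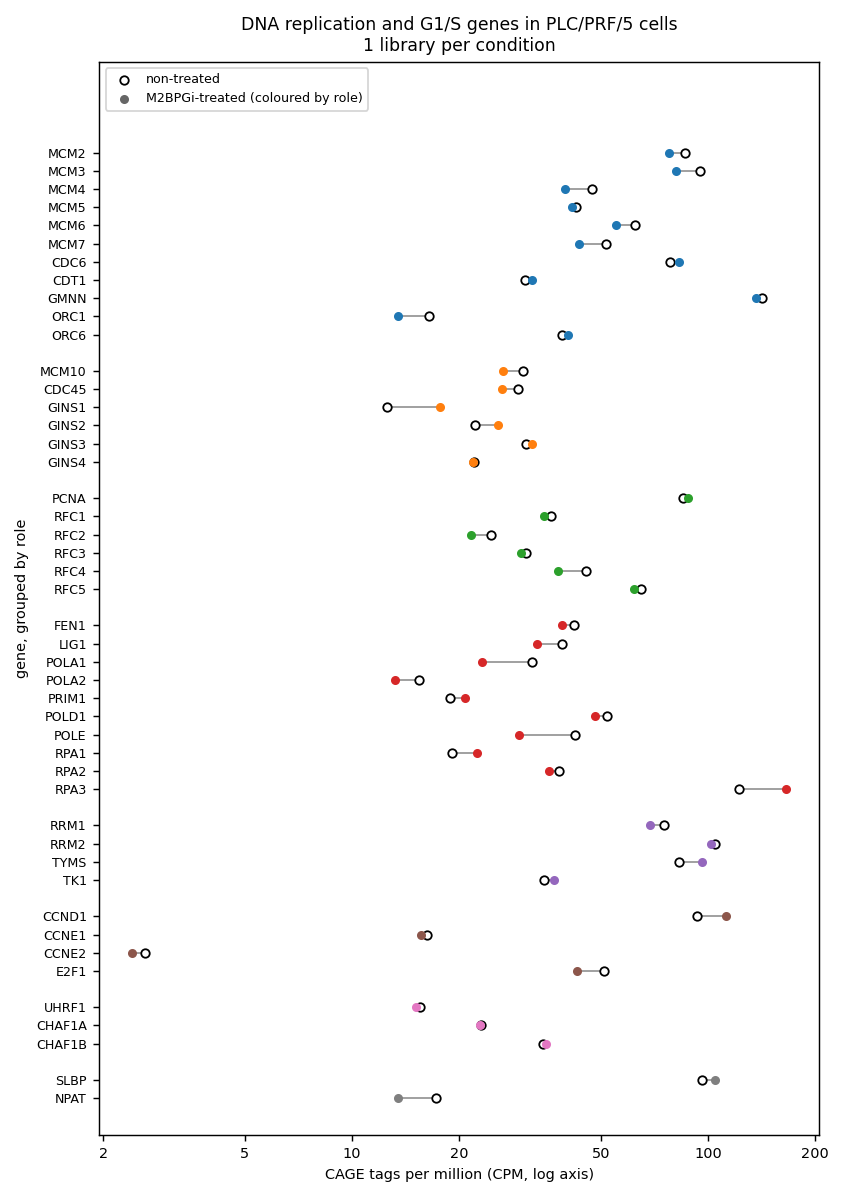
CPM on a log axis for each of the 46 genes, grouped by role, with open circles for the non-treated library, filled circles for the M2BPGi-treated library and a line joining them. CCNE2 is the lowest at 2.62 and 2.41 CPM, and RPA3, at 123 and 166 CPM, and GMNN, at 142 and 137 CPM, are at the upper end.

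**Figure D2:**
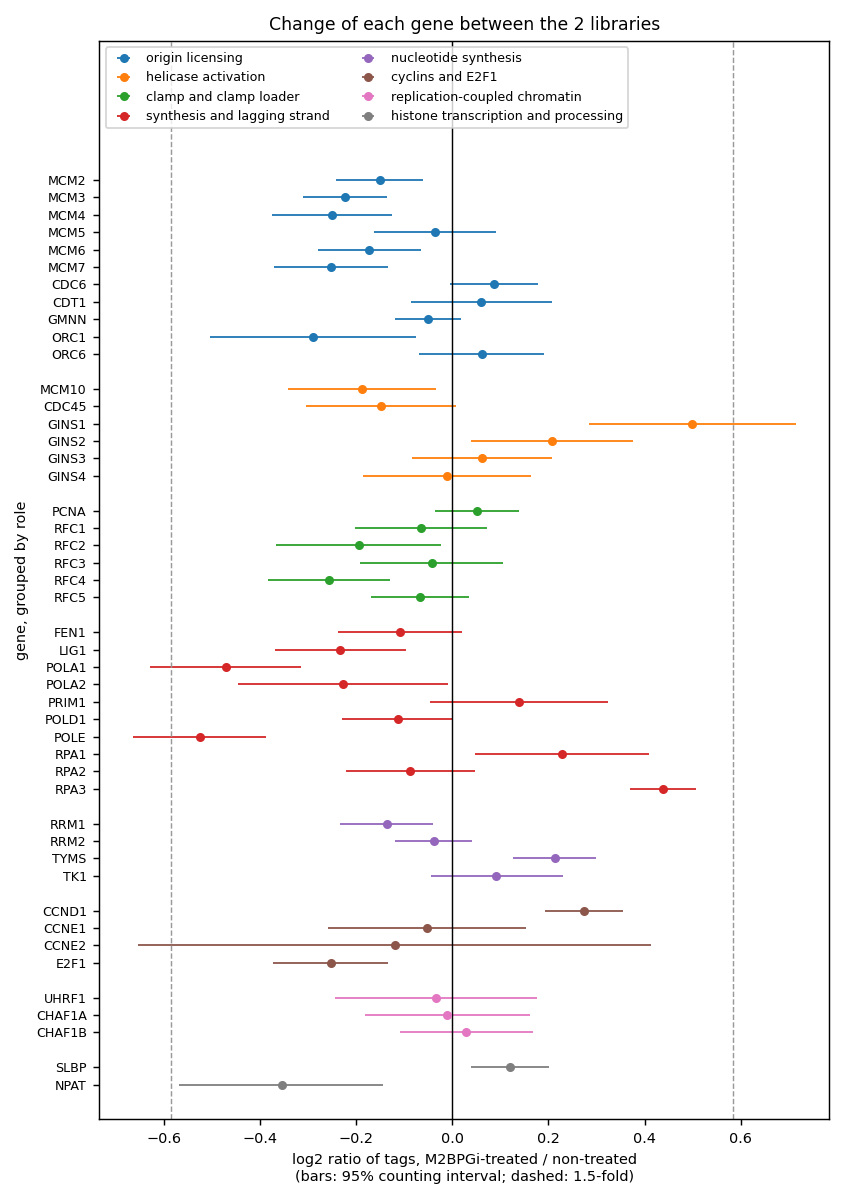
Log2 ratio of tags, M2BPGi-treated over non-treated, for each gene by role, with bars for the 95% interval of counting error and dashed lines at 1.5-fold. The points of MCM2 to MCM7 lie below 0, although that of MCM5 turns above 0 when the libraries are rescaled to the median gene, and POLE and GINS1 mark the ends.

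The MCM2 to MCM7 genes, which encode the 6 subunits of the ring-shaped replicative helicase, were all lower in the M2BPGi-treated library, 5 of them beyond counting error, against 31.5% of all genes, or 34.8% at a mean CPM of 10 or more. By sign alone, 57% of all genes analysed were lower, or 54% at that mean CPM. Of the ring genes, only MCM5 turned higher, to 0.02, with the libraries rescaled to the median gene. This summary was chosen after the values were seen. Together they summed to 385 and 339 CPM, a log2 ratio of the sums of -0.18 (interval -0.23 to -0.14), and their median log2 ratio was -0.19, or -0.14 after that rescaling. MCM2 was at 86.3 and 77.8 CPM (log2 ratio -0.15, interval -0.24 to -0.06). MCM3 was the most abundant of the ring genes, at 95.1 and 81.5 CPM (log2 ratio -0.22). MCM4 was at 47.1 and 39.6 CPM (log2 ratio -0.24), and MCM6 at 62.2 and 55.2 CPM (log2 ratio -0.17). MCM7 had the lowest ratio of the ring genes, at 51.8 and 43.5 CPM (log2 ratio -0.25). MCM5 was at 42.6 and 41.6 CPM, and its interval of -0.16 to 0.09 included 0.

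ORC1, the largest subunit of the origin recognition complex, had the lowest ratio of the 11 licensing genes, at 16.5 and 13.5 CPM (log2 ratio -0.27, interval -0.50 to -0.08). ORC6, the smallest subunit, was at 38.9 and 40.5 CPM. CDC6, the ATPase that joins the origin recognition complex to recruit the ring, had the highest ratio of the group, at 78.2 and 83.1 CPM (log2 ratio 0.09, interval 0.00 to 0.18). The lower bound of CDC6 was just below 0, and the gene counted as higher beyond counting error only with the libraries rescaled. CDT1, which brings the ring to the origin, was at 30.7 and 32.0 CPM. GMNN, encoding the CDT1 inhibitor geminin, was the most abundant licensing gene, at 142 and 137 CPM. The intervals of ORC6, CDT1 and GMNN included 0. In all, 6 of 11 licensing genes were lower and 0 higher beyond counting error, where 31.5% and 22.8% of all genes were, or 34.8% and 28.9% at a mean CPM of 10 or more. Their median log2 ratio was -0.15. With the libraries rescaled to the median gene, 6 were lower and 1 higher, with a median of -0.098.

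Promoter sequences of the 46 genes were searched for E2F letters, as a description. RefSeq promoters (GRCh38.p14), from 250 bases before to 50 after the start, were matched by symbol for 39 of the 46 genes. MCM4, MCM5, GINS4, RPA2, RPA3, CCND1 and CCNE2 had none in the table. The letters searched on both strands were TTTCCCGC, TTTGGCGC, TTTCGCGC and TTTGCCGC, and matches may overlap. They were in 18 of the 39 promoters (46.2%), in 3.31% of all 35116 promoters and in 5.57% of the 8799 promoters of genes analysed. Of the 25 matches, 17 began between 60 bases before and 13 after the start, and 5 genes had more than 1. CCAAT was in 59.0% of the 39 promoters, 34.6% of all and 37.4% of those of genes analysed. For TATAAA these shares were 5.13%, 11.5% and 5.03%. A match is a description of the letters, not a site or a cause.

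Promoters of 7 genes are printed to show where the E2F letters (in capitals) lie in the 4 MCM ring genes with a sequence, in E2F1, and in POLE and GINS1, the genes with the lowest and the highest log2 ratio. This set was chosen after the values were seen. Each runs 5′ to 3′ along the gene, with 200 bases before the start and 20 from it. In GRCh38.p14 these are MCM2 at chr3:127598211-127598430 on the plus strand, MCM3 at chr6:52284723-52284942 on the minus strand, MCM6 at chr2:135876424-135876643 on the minus strand, MCM7 at chr7:100101378-100101597 on the minus strand, E2F1 at chr20:33686366-33686585 on the minus strand, POLE at chr12:132687323-132687542 on the minus strand and GINS1 at chr20:25407473-25407692 on the plus strand.
MCM2: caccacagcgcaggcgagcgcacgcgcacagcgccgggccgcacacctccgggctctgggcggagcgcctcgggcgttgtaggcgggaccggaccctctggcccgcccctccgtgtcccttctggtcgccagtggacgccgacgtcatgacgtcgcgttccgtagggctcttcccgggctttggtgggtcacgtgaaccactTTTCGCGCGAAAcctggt
MCM3: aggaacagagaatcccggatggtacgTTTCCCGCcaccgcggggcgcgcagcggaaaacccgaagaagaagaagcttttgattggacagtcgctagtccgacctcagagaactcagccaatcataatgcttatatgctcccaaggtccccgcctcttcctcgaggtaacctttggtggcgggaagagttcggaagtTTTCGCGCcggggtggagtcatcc
MCM6: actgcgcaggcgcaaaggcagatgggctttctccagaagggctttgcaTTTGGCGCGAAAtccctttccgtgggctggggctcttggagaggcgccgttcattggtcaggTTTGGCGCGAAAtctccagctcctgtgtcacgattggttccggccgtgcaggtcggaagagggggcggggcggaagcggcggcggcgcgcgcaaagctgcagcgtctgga
MCM7: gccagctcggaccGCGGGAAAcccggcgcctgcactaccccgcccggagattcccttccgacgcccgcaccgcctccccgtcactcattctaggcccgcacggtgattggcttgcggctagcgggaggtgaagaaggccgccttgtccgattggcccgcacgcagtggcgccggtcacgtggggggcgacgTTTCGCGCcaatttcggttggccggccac
E2F1: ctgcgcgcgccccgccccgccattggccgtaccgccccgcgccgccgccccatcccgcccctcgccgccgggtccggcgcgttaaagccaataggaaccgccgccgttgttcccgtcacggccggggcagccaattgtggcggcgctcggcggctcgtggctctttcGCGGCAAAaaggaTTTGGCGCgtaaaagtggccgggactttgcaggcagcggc
POLE: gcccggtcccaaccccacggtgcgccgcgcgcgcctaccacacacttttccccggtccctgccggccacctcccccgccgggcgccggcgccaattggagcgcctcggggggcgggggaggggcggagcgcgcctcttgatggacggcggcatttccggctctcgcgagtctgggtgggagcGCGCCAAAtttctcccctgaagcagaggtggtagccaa
GINS1: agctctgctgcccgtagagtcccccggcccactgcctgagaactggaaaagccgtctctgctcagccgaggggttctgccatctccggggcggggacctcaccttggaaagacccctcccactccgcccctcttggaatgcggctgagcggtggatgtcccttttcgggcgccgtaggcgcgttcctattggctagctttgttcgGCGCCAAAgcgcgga

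In MCM2 the letters TTTCGCGC occur on both strands of 1 stretch, and in MCM6 TTTGGCGC on the gene's strand overlaps TTTCGCGC on the other strand at 2 places. POLE and GINS1, at the opposite ends of the log2 ratios, hold the same letters, TTTGGCGC, each on the strand opposite to the gene. The 18 genes with a match had a median log2 ratio of -0.10, with 7 above 0 and 11 below and a range of -0.51 to 0.47. The 21 genes without one had a median of -0.06, with 6 above 0 and 15 below and a range of -0.33 to 0.22. Over all genes analysed, 42.9% were above 0 and 57% below. The ranges of the genes with and without these letters overlapped.

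Among the genes that activate the helicase, GINS1 and GINS2 were higher in the M2BPGi-treated library and MCM10 was lower. GINS1, a subunit of the GINS complex, had the highest log2 ratio of the 46 genes, at 12.5 and 17.7 CPM (301 and 440 tags, log2 ratio 0.47, interval 0.28 to 0.72). Its tag ratio was 1.41. GINS2 was at 22.2 and 25.7 CPM (log2 ratio 0.20, interval 0.04 to 0.38). GINS3 was at 30.7 and 32.1 CPM and GINS4 at 22.1 and 21.9 CPM, both with intervals that included 0. The GINS1 to GINS4 proteins form 1 complex. In a summary chosen after the values were seen, their genes summed to 87.5 and 97.3 CPM. Of the GINS genes, 3 were above 0, where 42.9% of all genes analysed were, or 45.9% at a mean CPM of 10 or more. GINS4 was above 0 as well after rescaling. CDC45, which completes the active helicase with GINS and the MCM ring, was at 29.2 and 26.3 CPM, and its interval of -0.30 to 0.01 included 0. MCM10, needed for the helicase to start, was the lowest of the group, at 30.3 and 26.6 CPM (log2 ratio -0.18, interval -0.34 to -0.03), and its interval included 0 after rescaling to the median gene.

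The sliding clamp and its loader differed little. PCNA, the clamp, had the highest ratio of its group, at 84.9 and 88.0 CPM (log2 ratio 0.05, interval -0.04 to 0.14). With the libraries rescaled to the median gene its interval lay above 0. The loader is made of RFC1 to RFC5, of which RFC4 and RFC2 were lower beyond counting error. RFC4 had the lowest ratio, at 45.3 and 38.0 CPM (log2 ratio -0.25, interval -0.38 to -0.13). RFC2 was at 24.6 and 21.5 CPM (log2 ratio -0.19), and its interval included 0 after rescaling. The large subunit gene RFC1 was at 36.3 and 34.7 CPM, RFC3 at 30.8 and 29.9 CPM and RFC5 at 65.0 and 62.0 CPM, all with intervals that included 0.

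The synthesis genes held the widest range of ratios. POLE, the catalytic subunit of the leading-strand polymerase epsilon, had the lowest log2 ratio of the 46 genes, at 42.3 and 29.4 CPM (1016 and 730 tags, log2 ratio -0.51, interval -0.66 to -0.39). POLA1, the catalytic subunit of polymerase alpha, which extends the primers, was at 32.1 and 23.2 CPM (log2 ratio -0.45, interval -0.63 to -0.31). POLA2, its accessory subunit, was at 15.4 and 13.2 CPM (interval -0.45 to -0.01), lower beyond counting error in the deposited values but not after rescaling. PRIM1, the primase subunit of the same complex, was at 18.9 and 20.8 CPM, and its interval included 0 but lay above 0 after rescaling to the median gene. PRIM2, the other primase subunit and not among the 46 genes, was at 26.1 and 23.1 CPM (interval -0.34 to -0.01). It has near-identical copies and was named after its values were seen.

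On the lagging strand, LIG1, the ligase that seals Okazaki fragments, was lower beyond counting error, at 38.9 and 33.1 CPM (log2 ratio -0.23). FEN1, the nuclease that trims their flaps, was at 41.9 and 38.9 CPM, and POLD1, the catalytic subunit of polymerase delta, at 52.0 and 48.1 CPM. The intervals of FEN1 and POLD1 included 0. RPA, which coats single-stranded DNA, has 3 subunits whose genes did not share a direction. RPA3, the smallest, had the highest ratio of the synthesis genes and the highest mean CPM of the 46, at 123 and 166 CPM (log2 ratio 0.43, interval 0.37 to 0.51). RPA1, the large DNA-binding subunit, was higher as well, at 19.1 and 22.4 CPM (log2 ratio 0.22). RPA2, the middle subunit, was at 38.1 and 35.8 CPM, and its interval included 0. In both libraries RPA3 had more tags than RPA1 and RPA2 together.

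Of the nucleotide synthesis genes, TYMS was higher and RRM1 lower beyond counting error. TYMS, the thymidylate synthase, had the highest ratio of the group, at 82.8 and 96.0 CPM (log2 ratio 0.21, interval 0.13 to 0.30). RRM1, the large subunit of ribonucleotide reductase, had the lowest, at 75.3 and 68.5 CPM (log2 ratio -0.13, interval -0.23 to -0.04), and its interval included 0 after rescaling to the median gene. RRM2, the small subunit, was the most abundant of the group, at 105 and 102 CPM. TK1, the thymidine kinase of cycling cells, was at 34.5 and 36.8 CPM (log2 ratio 0.09, interval -0.05 to 0.23). The intervals of RRM2 and TK1 included 0, and that of TK1 lay above 0 after rescaling.

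Among the regulators, CCND1 was higher and E2F1 lower beyond counting error. CCND1, encoding cyclin D1, the partner of CDK4 and CDK6 that responds to growth factors, was at 93.0 and 112 CPM (log2 ratio 0.27, interval 0.19 to 0.35). E2F1, a transcription activator of S-phase genes, was at 51.0 and 42.8 CPM (log2 ratio -0.25, interval -0.37 to -0.13). The cyclin E genes were lower in level than both. CCNE1 was at 16.2 and 15.7 CPM, with an interval that included 0. CCNE2 was at 2.62 and 2.41 CPM (63 and 60 tags), and with an interval of -0.65 to 0.41 a difference was not detectable at this depth.

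The genes that act on chromatin behind the fork had ratios near 0. UHRF1, which recruits the maintenance DNA methyltransferase, had the lowest ratio of the 3, at 15.5 and 15.2 CPM (interval -0.24 to 0.18). CHAF1A and CHAF1B encode subunits of CAF-1, the chaperone that places histones on new DNA. CHAF1A was at 23.0 and 22.9 CPM, and CHAF1B had the highest ratio, at 34.4 and 35.1 CPM (interval -0.11 to 0.17).

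The histone transcription and processing genes lay on opposite sides of 0. NPAT, the coactivator of replication-dependent histone genes, was lower, at 17.2 and 13.4 CPM (log2 ratio -0.33, interval -0.57 to -0.14). SLBP, which binds the stem-loop at the end of histone mRNAs, was higher, at 96.1 and 104 CPM (log2 ratio 0.12, interval 0.04 to 0.20). The histone cluster genes that these factors serve had a median log2 ratio of 0.52 over 53 genes analysed of 61 listed. Of the 53, 52 were higher and 1 lower beyond counting error, against 22.8% and 31.5% of all genes. At a mean CPM of 10 or more, HIST1H4C, HIST1H4D and HIST1H3G had the highest log2 ratios, 1.21, 1.11 and 0.97. The lowest were HIST1H3E, HIST1H4A and HIST2H2BF, with -0.32, 0.20 and 0.24. Histone genes resemble one another closely, and tags may have been assigned to a similar copy.

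**Figure D3:**
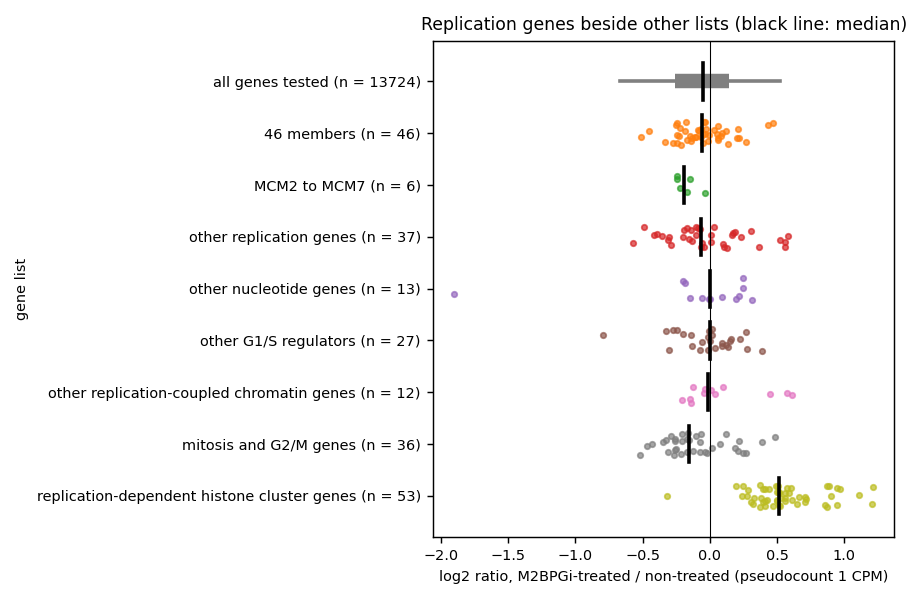
Log2 ratio of M2BPGi-treated over non-treated, 1 CPM added, with a point for each gene of the lists named on the axis and black lines at medians. The top row shows the central 95% (thin bar) and the quartiles (thick bar) of all genes analysed. Medians are -0.06 for the 46 genes, -0.16 for mitosis genes and 0.52 for histone cluster genes.

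Other genes of the pathway also lay on both sides of 0. Of 91 such genes, 89 could be analysed, with a median log2 ratio of -0.01, and 24 were higher and 25 lower beyond counting error, against 22.8% and 31.5% of all genes. LSM10, a protein of the U7 particle that processes histone pre-mRNA, was the only one at least 1.5-fold higher, at 32.2 and 49.7 CPM (log2 ratio 0.61). CDKN2D, encoding an inhibitor of CDK4 and CDK6, was at least 1.5-fold lower, at 21.8 and 12.2 CPM (log2 ratio -0.79).

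Of 37 further replication genes, 11 were higher and 13 lower beyond counting error, against 22.8% and 31.5% of all genes, and their median log2 ratio was -0.07. At a mean CPM of 10 or more, the lowest were RECQL4, TICRR and CLSPN. RECQL4 and TICRR act in origin firing, and CLSPN acts in the replication checkpoint. RECQL4 was at 38.7 and 27.3 CPM (log2 ratio -0.49), TICRR at 23.8 and 17.6 CPM (-0.42) and CLSPN at 39.3 and 29.8 CPM (-0.39). The highest were RNASEH2C, a subunit of ribonuclease H2, at 42.5 and 64.1 CPM (0.58), MCM8, an MCM protein outside the ring, at 9.11 and 13.9 CPM (0.56), and SSRP1, a subunit of the histone chaperone FACT, at 18.3 and 27.5 CPM (0.56).

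Of 13 further nucleotide genes, 5 were higher and 3 lower beyond counting error, against 22.8% and 31.5% of all genes. Their median was 0.00. DCTPP1, DCK and IMPDH2 had the highest log2 ratios, 0.31, 0.25 and 0.24, and SAMHD1, which breaks down dNTPs, and CTPS1 were among the lowest, with -0.20 and -0.18. Of 27 further G1/S regulators, 4 were higher and 6 lower beyond counting error, against the same shares of 22.8% and 31.5%. The median of these regulators was 0.00. CDKN2A, the locus of the CDK4 inhibitor p16, had the highest ratio, 0.39, followed by SKP2 and CKS1B, which act together in the breakdown of CDK inhibitors, with 0.28 and 0.27. CDKN2A and CKS1B have near-identical copies. After CDKN2D, the lowest at a mean CPM of 10 or more were CDC25A and RB1, with -0.33 and -0.24. CDC25A is a phosphatase that activates CDK2, and RB1 encodes the retinoblastoma protein that holds E2F. Of 12 further chromatin and histone mRNA genes, 4 were higher and 3 lower beyond counting error, where 22.8% and 31.5% of all genes were. The median of these 12 was -0.01. At a mean CPM of 10 or more, the chaperone genes ASF1A and RBBP7 followed LSM10 with 0.45 and 0.10. With the same filter, CASP8AP2, NASP and DNMT1 were the lowest with -0.21, -0.14 and -0.13. NASP has a near-identical copy.

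Mitosis and G2/M genes show the later part of the cycle. Of 36, 7 were higher and 20 lower beyond counting error, against 22.8% and 31.5% of all genes, and their median log2 ratio was -0.16. At a mean CPM of 10 or more, the lowest log2 ratios were -0.52 for HMMR, -0.47 for MKI67 and -0.35 for CENPA. The highest were 0.49 for BIRC5, 0.39 for PLK1 and 0.27 for CDCA8. Whether these genes and the 46 differ in their response was not tested.

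The 3 longest transcripts among the 46 genes belonged to the 3 genes with the lowest log2 ratios. POLE has 7840 nt, NPAT 6117 nt and POLA1 5486 nt, taken from the longest coding transcript in GENCODE release 29. Across the 46 genes, which are not independent replicates, Spearman's rho between length and log2 ratio was -0.26, and across the 43 others it was -0.10. Across 9393 genes of the whole libraries at a mean CPM of 10 or more it was -0.27, and across all 13554 genes analysed that have a length it was -0.17. In groups by length, chosen after the values were seen, the 15 shortest of the 46 (1262 to 2296 nt) had a median of 0.05, beside 0.00 for all genes of these lengths. The 15 longest (3736 to 7840 nt) had a median of -0.17, beside -0.09. The part of length in the values of POLE, NPAT and POLA1 was not tested.

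**Figure D4:**
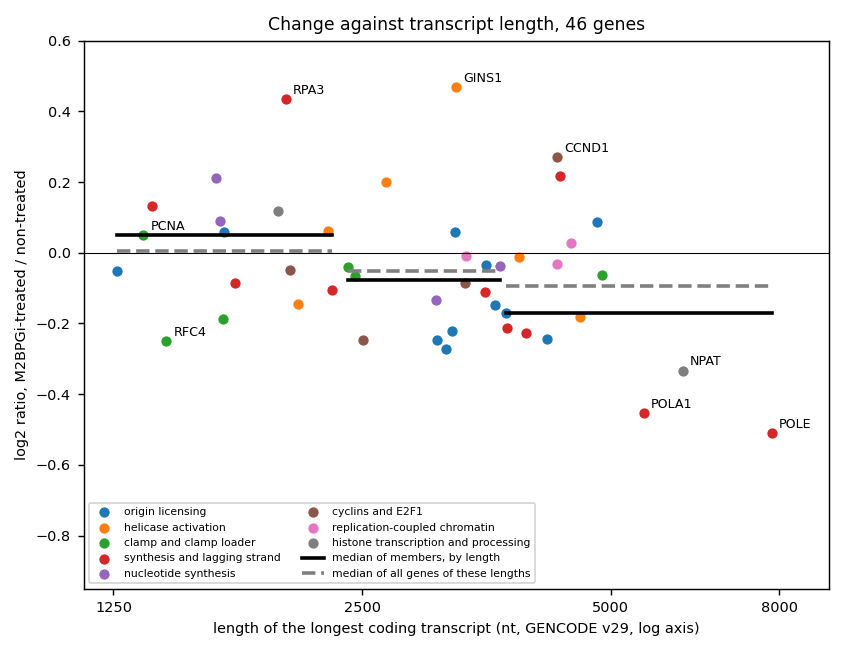
Log2 ratio of M2BPGi-treated over non-treated against transcript length on a log axis, with a point for each of the 46 genes, coloured by role. Solid lines are medians of the 15 shortest, 16 middle and 15 longest, at 0.05, -0.08 and -0.17, and dashed lines are those of all genes analysed of the same lengths, at 0.00, -0.05 and -0.09.

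Tags carry their strand, so both directions of a shared promoter region could be read. In GENCODE release 29, 14 of the 46 genes had an opposite-strand gene starting head to head within 1000 bases, and 10 had a partner that could be analysed. The log2 ratios of gene and partner had the same sign for 5 and opposite signs for 5. Among the partners that differed beyond counting error, the retromer gene VPS35, 125 bases from ORC6, was higher, at 139 and 159 CPM (log2 ratio 0.19). The splicing gene PRPF38A, 105 bases from ORC1, was also higher, at 19.2 and 23.7 CPM (interval 0.13 to 0.48), while ORC1 was lower. CDS2, a phospholipid synthesis gene 160 bases from PCNA, was lower, at 40.8 and 32.9 CPM (interval -0.44 to -0.17), while the interval of PCNA included 0. ZSWIM9, 89 bases from LIG1, was lower as LIG1 was, at 16.4 and 13.2 CPM (interval -0.53 to -0.10).

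For the other partners the interval included 0, except MIR611. PRKDC, the DNA-dependent protein kinase gene that starts 2 bases from MCM4, was at 98.5 and 94.1 CPM (interval -0.15 to 0.02). UFD1, 244 bases from CDC45, was at 93.8 and 96.9 CPM, and AFMID, 84 bases from TK1, at 34.98 and 36.8 CPM. PXMP2, a peroxisomal membrane gene 241 bases from POLE, was at 17.1 and 18.3 CPM (interval -0.10 to 0.29), wholly above the interval of POLE. It shares both values with the overlapping AC135586.2, 684 bases from POLE. The partner of TYMS, AP001178.1 at 345 bases, was at 15.5 and 17.4 CPM, the same values as the overlapping C18orf56. MIR611, 76 bases from FEN1, was higher, at 263 and 304 CPM, but these are also the values of the overlapping TMEM258, so its tags cannot be told apart from that gene's. None of the 46 genes shared its values with an overlapping listed gene. This check was added after the values were seen.

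Near-identical copies were found for 4 of the 46 genes, and for these the assignment of tags is uncertain. The first 500 nt of FEN1 match FEN1P1 (97.4% over 231 nt), those of UHRF1 match AC112777.1 (98.8% over 344 nt) and those of RRM2 match RRM2P3 (95% over 280 nt). RRM2P3 itself was at 0.71 and 0.56 CPM, and the copies of FEN1 and UHRF1 were not among the listed genes. CDT1 has a stretch that 144 other genes share over at most 144 nt. None of these 4 genes differed beyond counting error, and the 42 others had a median log2 ratio of -0.06.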

How the data were processed

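CAGE libraries of PLC/PRF/5 cells were compared, 1 non-treated and 1 with M2BPGi. The authors removed tags of ribosomal origin or with undetermined bases, aligned reads with BWA and grouped 5′ ends with CAGEr. The paper's methods name a mouse genome, while the submitters' processing notes list hg19, BWA and HISAT2. Identifiers are human. The assignment of tags to genes is not given in the sources used here. The authors deposited CPM for each gene, rounded to 2 decimals.

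Tag totals were found as the library sizes at which 100% of CPM above 0 are whole tags within 0.005 CPM. Log2 ratios used a pseudocount of 1 CPM, over 13724 genes with a mean CPM of 1 or more. The conditions could not be tested. A planned binomial test of tags per gene, adjusted over all genes, was not run, because the deposited values are CPM and the tags read back did not meet a stricter tolerance for whole numbers, and 95% Clopper-Pearson intervals of the tag ratio, unadjusted and resting on the tags read back, took its place. A count of 0 was taken to allow 3 tags. The computation was tested on simulated data.

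The 46 genes and all lists were chosen with earlier results of these data known. All 46 are named, with intervals for the highest and lowest ratio of each role (mean CPM of at least 10), for E2F1, PCNA, MCM2, CCND1 and TK1, and for some others chosen after their values were seen. Of other lists, the 3 highest and 3 lowest with that mean CPM are named, beside divergent partners with a mean CPM of 1 or more. A gene selected this way is not reported here, and ALB, PTPRC and PRIM2 were named outside this rule, after their values were seen. Copies were searched with BLAST+ 2.17.0 in GENCODE release 29 (first 500 nt, match of at least 100 nt and 95% identity). Of the 46 genes, 45 were matched to it by identifier and 1 by symbol. Alternatives were other pseudocounts, filters, scalings and fold thresholds, and genes without copies. Python 3.11.15 with scipy 1.17.1 was used.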

Additional observations from a re-analysis of the deposited data

How the results depend on the processing

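No paired analysis was possible because there was a single library in each condition, and for the same reason none could be left out. None of the 46 genes (0) was 1.5-fold higher or lower under any pseudocount, filter, scaling or copy filter run, nor 2-fold. Rescaling to the median gene shifts M2BPGi-treated values by 0.05. It took the median of the 46 from -0.057 to -0.0062, that of MCM2 to MCM7 from -0.19 to -0.14, the genes higher beyond counting error from 7 to 11 and the lower ones from 16 to 12, where 27.7% and 26.0% of the genes analysed were then higher and lower. Equal upper quartiles, a scaling chosen after seeing the data, gave a median of -0.027. Of the 46, 8 were then higher and 14 lower beyond counting error, beside 25.6% and 28.3% of the genes analysed. Medians of 3 other lists, all near 0, changed sign. Further nucleotide genes went from 0.0037 to -0.0030 at a mean CPM of 10 or more. Further G1/S regulators went from -0.00032 to 0.028 with that filter, 0.051 rescaled to the median gene and 0.030 with equal upper quartiles. Further chromatin genes went from -0.013 to 0.037 and 0.016 under these scalings. Among the 46, the median of the 3 chromatin genes went from -0.0090 to 0.041 and 0.020 likewise. The filter leaves fewer genes and the scalings add a constant. Of the 46 genes, 8 changed sign and 8 gained or lost an interval on 1 side of 0 when rescaled to the median gene, and 2 and 3 did with equal upper quartiles. The TMM scaling and exact test of edgeR were planned and not run. Counting error is widest for CCNE2, and without replicates no spread between cultures is known.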
